A study of Homo sapiens with 12 samples.

Results

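LX-2 is an established human hepatic stellate cell line, and the libraries described here are those of the cells left untreated. They are the 3 con libraries of a series of 12 RNA-seq libraries, chosen by their label alone, and they were measured over 58735 annotated genes. The other groups, of 3 libraries each, received TGF-β1 at 5 ng/ml for 24 h (TGFB), siRNA against NAT10 (SiNAT10), or that siRNA 48 h before the same TGF-β1 dose (SiNAT10_TGFB). All of them share the wild-type genotype (WT in the labels) and growth in 1640 medium with fetal bovine serum, and the siRNA was delivered with Lipofectamine 2000. The untreated cells had no control siRNA and no transfection reagent named in the labels. The labels call the con libraries biological replicates of 1 line without naming separate cultures. Every SD below measures the spread between the libraries of a group, which may be technical. Every p below rests on the spread between libraries within the groups, estimated from all 12 libraries, which may be technical as well.

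Hepatic stellate cells lie between hepatocytes and the sinusoidal endothelium, where in the resting state they store retinyl esters in lipid droplets. On liver injury they lose those stores, proliferate and become contractile myofibroblasts that deposit fibrillar collagen. LX-2 cells grow on plastic in serum, conditions under which cultured stellate cells are known to take on activated features. The levels below show which parts of the resting and activated programs, and which receptors and secreted factors, had RNA in these cells without any added cytokine.

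The con libraries held 33477334, 29797990 and 31782311 counts. Levels are FPKM, fragments per length of gene and per 1 constant of each library. They can be compared between libraries and, within the limits of gene length given below, between genes. The constant was 1.03, 1.01 and 1.01 times the count total of con1, con2 and con3, so the scaling is not library size alone. A gene was called expressed when it had at least 1 FPKM in each con library, silent when it had under 0.1 FPKM in each, and between otherwise. At the depth of these libraries 3 counts were worth 0.0896 to 0.101 CPM (counts scaled to the library total), the limit below which a gene without counts was not detectable, counting error alone considered. The gene length behind the FPKM is that of all annotated exons joined, which lowers the level of genes with many alternative exons. The spread between libraries does not show this effect, so orders of genes below hold for this length only, even where ranges do not overlap. Counting also left out reads in shared exon bases: all 228 protein-coding genes lying fully within exons of other genes on the same strand, and all 17 on the opposite strand, had no count in any con library. A low value in an overlapped gene therefore gives no level. This touched 13 of the 299 listed genes called silent, among them MIF, CD68, IGF1 and TLR9.

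Of the 58735 genes, 11749 were expressed, 34971 were silent and 29074 had no count in any con library. Protein-coding genes made up most of the expressed ones: 10470 of 19951 were expressed (52.5%), with a median of 8.20 FPKM, and 6141 were silent. This share of 52.5% belongs beside each count of expressed list members below, and those counts depend on which genes were listed. Only 4313 coding genes reached 10 FPKM in each library and 252 reached 100 FPKM. Coding genes took 98.4% ± 0.0254 of the counts and 94.7% ± 0.0122 of the summed FPKM (SD, n = 3). Of 7629 long intergenic noncoding genes 215 were expressed, of 5583 antisense genes 221, and of 14487 pseudogenes 551. The median expressed lincRNA stood at 2.40 FPKM and the median expressed antisense gene at 2.04 FPKM, both below the median coding gene.

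**Figure D1:**
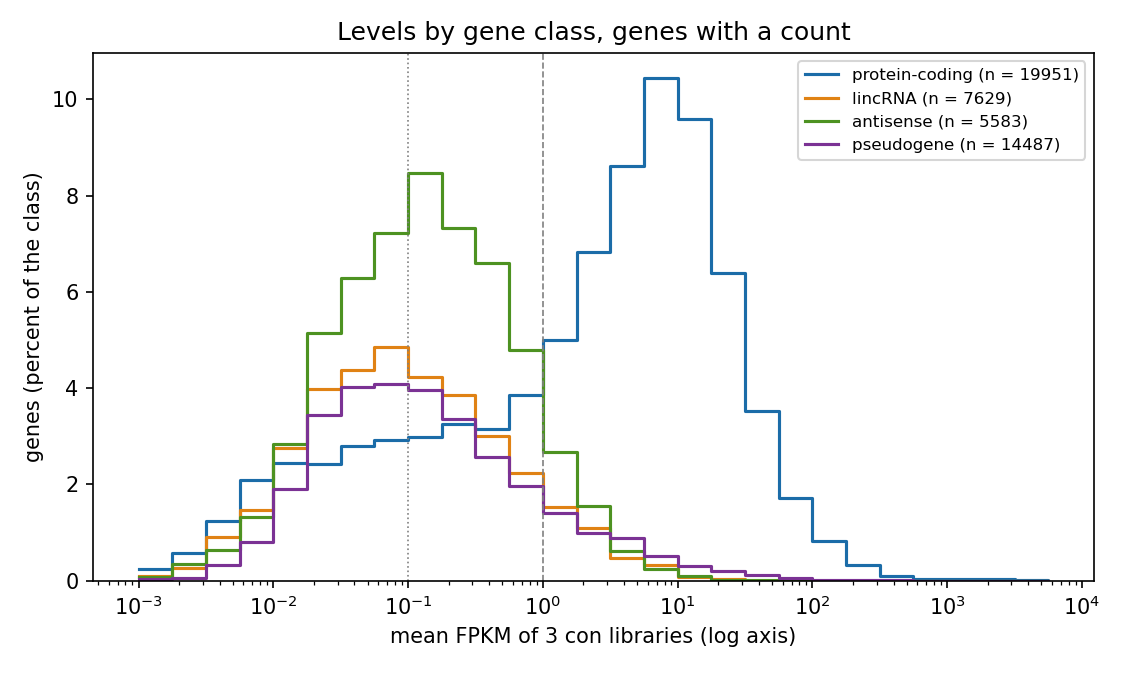
Distribution of mean FPKM over the 3 con libraries (log axis) for genes with at least 1 count, as a percentage of all genes of each class, in 0.25 steps of log10. The dashed line marks 1 FPKM and the dotted line 0.1 FPKM; the coding genes peak above the dashed line, and the other 3 classes peak near or below the dotted line.

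The most abundant coding RNAs came from mitochondrial DNA. The 13 mitochondrial coding genes, subunits of the respiratory chain and ATP synthase, gave 2.09% ± 0.0507 of the counts and 8.90% ± 0.239 of the summed FPKM (SD, n = 3). MT-CO1, the catalytic subunit of cytochrome c oxidase, stood at 4127, 4046 and 4144 FPKM and was the highest gene of all. MT-CO2 followed at 2779, 2685 and 2775 FPKM and MT-ND4 at 2590.2, 2586 and 2528 FPKM, and their libraries did not reach the range of MT-CO1. The lowest of the 13 was MT-ATP8 at 22.4, 17.8 and 21.2 FPKM, a gene that shares 22.2% of its bases with MT-ATP6. It has only 207 bases, and reads in shared bases were left out, so this value may fall short of its RNA, which was not tested.

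The 25 most abundant nuclear coding genes included genes of the cytoskeleton, glycolysis, translation and protein folding. TMSB10, an actin-monomer binding thymosin, was first at 2179, 2164 and 2385 FPKM. The cytoplasmic actins ACTG1 and ACTB came next, at 1794, 2070.3 and 1973 FPKM and 1601, 1942 and 1810.1 FPKM. Their order by FPKM was the same in each library, but the means, 1946 ± 140.2 (SD, n = 3) and 1784 ± 172, differed by less than the SD of ACTB. By counts the order was the reverse in each library, 185315, 186313 and 189827 for ACTG1 against 194466, 205481 and 204768 for ACTB. The order of these actins thus depends on the gene length used. FTL, the ferritin light chain, averaged 1174 FPKM and LGALS1, the secreted lectin galectin-1, 706 FPKM. MYH9 and FLNA, non-muscle myosin and filamin, averaged 572 and 452 FPKM, and CAVIN1, a coat protein of caveolae, 533 FPKM. The glycolytic enzymes GAPDH, TPI1, ENO1 and PKM averaged 1041, 466, 380.1 and 365 FPKM. EEF1A1 and EEF2, the translation elongation factors, stood at 1019 and 399 FPKM. The chaperones HSPA8, HSP90AB1 and CALR averaged 511, 479 and 424 FPKM.

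CYR61, a matricellular growth factor of the CCN family known as a response to YAP signalling, was also among these 25 in cells that had received no TGF-β1. It stood at 388, 412 and 398 FPKM, rank 32 of all coding genes, with a coefficient of variation of 3.10% between libraries. MT2A, a metal-binding metallothionein, had 642, 691 and 799 FPKM, and its coefficient of variation of 11.3% was the highest of the 25. The 25 genes together held 5.89% ± 0.231 of the counts and the first 100 held 12.8% ± 0.325 (SD, n = 3). The 88 cytosolic ribosomal protein genes, RPL41 and RPL19 of the first 25 among them, held 2.79% ± 0.109 of the counts.

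The actin family shows how far single members of 1 family stood apart. After ACTG1 and ACTB, the next was ACTG2, enteric smooth muscle actin, at 17.4, 19.9 and 17.6 FPKM. ACTA2, α-smooth muscle actin and the classical marker of the activated stellate cell, had only 1.19, 0.916 and 1.18 FPKM, from 122, 82 and 113 counts. The cardiac and skeletal actins ACTC1 and ACTA1 had 0.806, 0.737 and 0.656 and 0.252, 0.445 and 0.166 FPKM. The ranges of neighbouring actins in this order did not overlap, except those of ACTG1 and ACTB. ACTA2 shares 30.1% of its exon bases with genes on the opposite strand, and reads in shared bases do not enter its level.

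Promoters of these actins are shown because their levels in the con libraries ran from over 1000 FPKM to about 1 FPKM. The sequences are the 250 bases before the transcription start from RefSeq (GRCh38.p14), written in the direction of transcription, with a CArG box in capitals. A CArG box, the site known for serum response factor, was searched as 2 C, 6 bases that are A or T, and 2 G, a pattern that reads the same on both strands. It was found in 1.16% of all 35116 promoters of the table.
ACTG1, chr17:81512800-81513049, minus strand: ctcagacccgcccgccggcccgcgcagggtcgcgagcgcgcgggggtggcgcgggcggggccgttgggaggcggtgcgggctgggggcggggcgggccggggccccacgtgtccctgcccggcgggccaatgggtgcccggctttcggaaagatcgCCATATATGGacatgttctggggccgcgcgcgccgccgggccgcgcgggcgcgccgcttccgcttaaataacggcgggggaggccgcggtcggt
ACTG2, chr2:73892758-73893007, plus strand: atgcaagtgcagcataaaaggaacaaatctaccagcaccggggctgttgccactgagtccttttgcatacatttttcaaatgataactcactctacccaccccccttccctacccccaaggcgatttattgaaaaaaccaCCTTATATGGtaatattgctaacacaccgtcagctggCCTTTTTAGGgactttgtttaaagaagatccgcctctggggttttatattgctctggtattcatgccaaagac
ACTA2, chr10:88952774-88953023, minus strand: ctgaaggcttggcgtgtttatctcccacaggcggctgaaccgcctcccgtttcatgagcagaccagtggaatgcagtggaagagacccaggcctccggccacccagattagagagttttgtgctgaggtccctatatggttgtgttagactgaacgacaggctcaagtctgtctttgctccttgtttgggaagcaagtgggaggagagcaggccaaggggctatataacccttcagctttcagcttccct
The ACTG1 window held 1 match, starting 94 bases before the start site, and 43 CpG dinucleotides. The ACTG2 window held 2 matches, the first 110 bases before the start, and 4 CpG. The ACTA2 window held no exact match and 6 CpG. The stretches ccctatatgg and ccttgtttgg in this window each differ from the pattern at a single base. Near matches were not searched for in any window, so these numbers do not show that ACTA2 lacks such sites. A second ACTA2 start in the table, at chr10:88991338-88991587 and not shown, also held no match and had 17 CpG, so the CpG number depends on the start chosen. A match is a run of letters and was not tested as a binding site here.

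Promoter composition also differed between expressed and silent coding genes as classes. Of the 10469 expressed symbols 8449 matched the table, with 12309 promoters, and of the 6130 silent symbols 4081 matched, with 5342 promoters. The median GC content was 65.2% for expressed and 53.2% for silent genes. The Sp1-type motif GGGCGG, searched on both strands, was present in 65.5% of expressed and 30.8% of silent promoters, against 42.6% of all promoters. The TATA motif TATAAA, also on both strands, showed the opposite order, with 5.31% of expressed and 16.0% of silent promoters, against 10.7% of all. CCAAT differed little, at 32.98% and 33.8%, against 32.0% of all. CArG boxes were in 1.05% of expressed and 1.46% of silent promoters, and in 3.64% of the 110 promoters of the 82 matched genes among the 100 most abundant. This last share rests on very few promoters, that of ACTG1 among them, and does not show a difference. These shares are descriptions, because promoters of 1 gene overlap and genes are not replicates.

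The markers of the resting stellate cell were mixed. Of 25 identity genes 8 were expressed, 6 lay between and 11 were silent, 4 of them without a count in any con library, and the list median was 0.0983 FPKM, against 1.51 FPKM for all coding genes. LRAT, the enzyme that makes retinyl esters, had no count in any con library, with 3 counts worth 0.0123 FPKM. HGF, the hepatocyte growth factor that stellate cells are known to secrete, also had none. DES (desmin), CYGB (cytoglobin) and PPARG, each used as a stellate marker, averaged 0.0494, 0.0314 and 0.0692 FPKM. The highest identity genes were ECM1, a secreted matrix protein, at 23.5, 26.8 and 24.0 FPKM and GATA4, a transcription factor of liver mesenchyme, at 7.59, 7.72 and 8.17 FPKM. PTH1R, the parathyroid hormone receptor, had 5.02, 5.03 and 4.69 FPKM, and LHX2, a LIM-homeobox factor of stellate cells, 3.37, 4.02 and 3.70 FPKM. PDGFRB, the receptor for PDGF-B, stood at 4.10, 3.89 and 4.16 FPKM, and NGFR, the p75 neurotrophin receptor, at 3.06, 3.57 and 2.93 FPKM. HAND2, another mesenchymal factor, had 2.36, 2.41 and 2.19 FPKM. In such bulk libraries a smaller number of cells with a gene and less RNA per cell cannot be told apart.

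Most listed genes of the activated stellate cell had RNA: 22 of 26 were expressed, 20 of them at 10 FPKM or more and 8 at 100 FPKM or more in each library, with a median of 61.8 FPKM. COL1A1, the α1 chain of type I collagen (chr17:50183289-50201632 in hg38), had 297, 322 and 307 FPKM, rank 45 of the coding genes. VIM, the intermediate filament vimentin, had 247, 241 and 249 FPKM, and MYL9, the regulatory light chain of contractile myosin, 227, 249 and 238 FPKM. FN1 (fibronectin) averaged 183 FPKM, SPARC 167 FPKM and the collagen cross-linking enzyme LOXL2 159 FPKM. TAGLN, an actin-binding protein of contractile cells, had 60.8, 68.8 and 67.2 FPKM, and CNN1 (calponin) 14.1, 17.0 and 15.7 FPKM.

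The 4 members that missed the threshold of expressed are widely used as activation markers. They were ACTA2 and COL1A2, which lay between, and POSTN (periostin) and FAP (fibroblast activation protein). ACTA2, at about 1 FPKM as given above, had RNA in each library and missed the threshold only in con2. COL1A2, the α2 chain that joins COL1A1 chains in type I collagen (chr7:94394561-94431232), had 0.112, 0.149 and 0.117 FPKM, from 43, 50 and 42 counts. The α1 chain thus had 95118 to 100607 counts per library against 42 to 50 for the α2 chain, and COL1A2 shares no exon base with another gene. POSTN averaged 0.0286 FPKM and FAP 0.0231 FPKM, both silent.

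Fibroblast genes were mixed, with 8 of 20 expressed. NT5E (CD73) at 65.0, 61.0 and 65.8 FPKM, ENG (endoglin) at 28.9, 34.97 and 34.2 FPKM and THY1 at 11.5, 13.03 and 13.2 FPKM were expressed. DCN (decorin), a small proteoglycan abundant in most fibroblasts, had no count in any library (3 counts were worth 0.00724 FPKM), and PDGFRA and PRRX1 averaged 0.0135 and 0.00720 FPKM. LUM (lumican) was counted in 1 of the 3 libraries. Of 13 smooth muscle and pericyte genes 8 were expressed, led by MCAM at 60.1 FPKM and CSPG4 (NG2) at 54.9 FPKM. MYOCD, the cofactor of serum response factor in smooth muscle, had 2.43, 2.09 and 2.15 FPKM, whereas MYH11, smooth muscle myosin, averaged 0.103 FPKM. Of the portal fibroblast and mesothelial genes 4 of 11 were expressed, with WT1 at 5.40, 4.51 and 5.01 FPKM and MSLN (mesothelin) at 1.37, 2.196 and 1.96 FPKM.

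**Figure D2:**
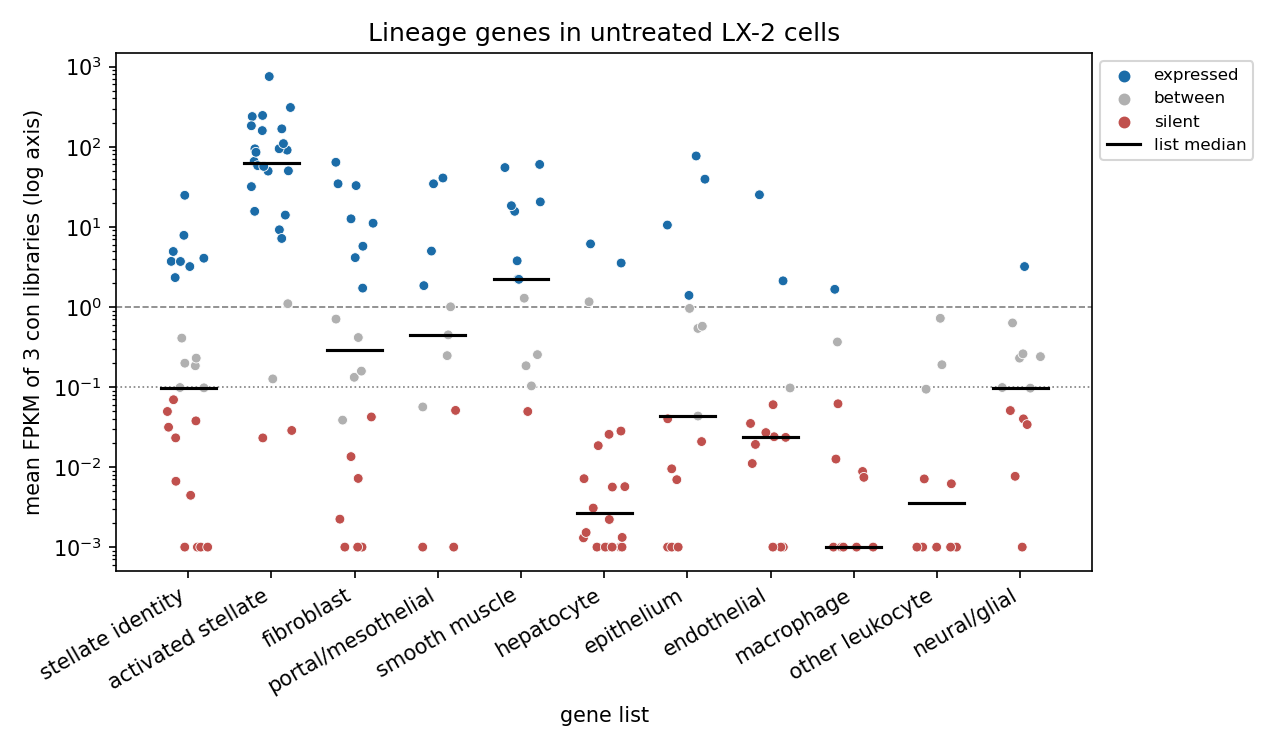
Mean FPKM over the 3 con libraries (log axis) of each gene in 11 lineage lists, coloured by its state; the black bar is the list median, the dashed line 1 FPKM and the dotted line 0.1 FPKM. Values under 0.001 are drawn at 0.001. The activated stellate list has a median of 61.8 FPKM, the stellate identity list 0.0983 FPKM.

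Most listed markers of hepatocytes, macrophages, other leukocytes and endothelium were silent. Of 20 hepatocyte genes 17 were silent, with ALB (albumin) at 0.00307 FPKM and no count for TTR, AHSG, FGA, FGB, APOA2 or CYP3A4. CPS1, the first enzyme of the urea cycle, at 5.91, 6.26 and 6.16 FPKM and SERPINA1, α1-antitrypsin, at 3.04, 3.87 and 3.67 FPKM were expressed, and ASGR1, a hepatocyte surface receptor, lay between at 1.20, 0.994 and 1.28 FPKM. Of 13 macrophage genes only CD14 was expressed, at 1.92, 1.52 and 1.53 FPKM, and C1QA, C1QB, C1QC, MARCO, VSIG4 and TIMD4 had no count. No leukocyte gene of 10 was expressed. Of 13 endothelial genes 10 were silent, including PECAM1 at 0.0239 FPKM and KDR at 0.0350 FPKM. TIE1, an orphan receptor kinase known from endothelium, nevertheless had 22.8, 26.4 and 26.1 FPKM, and its partner TEK had 2.09, 1.95 and 2.30 FPKM.

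Simple-epithelial keratins were expressed in these mesenchymal cells. KRT18 stood at 70.7, 78.6 and 80.5 FPKM and its partner KRT8 at 37.7, 40.2 and 40.1 FPKM, ranks 404 and 989 of the coding genes. They belong to a list of 15 genes of bile duct and other epithelium, of which 4 were expressed, 4 lay between and 7 were silent. SOX9, a factor of bile duct and other progenitor cells, had 9.96, 10.1 and 11.5 FPKM and the tight junction gene CLDN4 1.38, 1.44 and 1.35 FPKM, while MUC1, CLDN3 and KRT7 lay between, at 0.957, 0.573 and 0.538 FPKM. KRT19 averaged 0.00949 FPKM, CDH1 (E-cadherin) 0.00695 FPKM, and ESRP1 and GRHL2 had no count. Of 12 neural and glial genes NGFR alone was expressed, and GFAP, a glial filament also reported in rodent stellate cells, had 0.0957, 0.102 and 0.0976 FPKM.

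Of 23 retinoid genes 9 were expressed. RDH11, a retinal reductase, led with 26.8, 25.7 and 26.99 FPKM. The receptors RARA and RARG had 8.40 and 4.63 FPKM and RXRB 14.9 FPKM. CRABP2, which carries retinoic acid to its receptors, had 12.2, 10.2 and 11.3 FPKM, ALDH1A3, which makes retinoic acid, 3.78, 4.22 and 4.38 FPKM, and CYP26B1, which degrades it, 3.30, 3.67 and 3.94 FPKM. RARB and the plasma retinol-uptake receptor STRA6 lay between, at 0.101 and 0.638 FPKM, and ALDH1A1, CRABP1 and RARRES2 had no count. Of 18 lipid droplet genes 10 were expressed. PLIN3, a broadly expressed droplet coat protein, had 39.3, 45.9 and 47.3 FPKM and the triglyceride lipase PNPLA2 17.1, 19.7 and 18.7 FPKM, while PLIN2, the coat protein of stellate and other droplets, had 3.50, 3.47 and 3.08 FPKM. PLIN1, CIDEA, CIDEC and FABP4, genes of the adipocyte, were silent.

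Of 254 listed receptors 114 were expressed (44.9%, against 52.5% of all coding genes). This share depends on which families were listed and was not tested against coding genes as a whole. Among the receptor tyrosine kinases 31 of 58 were expressed (53.4%), close to the share of all coding genes. AXL, the receptor for GAS6, led with 261, 261 and 269 FPKM, rank 60, and its libraries lay far above those of the next kinase, EPHA2, at 47.7, 56.5 and 54.2 FPKM. MET, the HGF receptor, had 31.9, 31.4 and 31.3 FPKM, FGFR1 18.8, 21.3 and 19.3 FPKM, EGFR 17.1, 18.0 and 16.8 FPKM and ERBB2 15.6, 18.3 and 17.3 FPKM. The ranges of EGFR and ERBB2 overlapped. DDR1 and DDR2, which bind collagen, had 9.35 and 7.89 FPKM. The PDGF receptors differed: PDGFRB was expressed, as given above, and PDGFRA had 6, 1 and 6 counts. INSR, the insulin receptor, had 0.873, 1.35 and 0.988 FPKM and missed the threshold in 2 libraries. KIT, ALK and KDR were silent, and ERBB4, FGFR2, FLT3 and NTRK2 had no count.

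Both TGF-β receptor kinases were expressed. TGFBR1, the type I receptor, had 22.6, 22.5 and 21.1 FPKM and TGFBR2, the type II receptor, 22.2, 23.1 and 23.3 FPKM, with overlapping ranges. The co-receptor ENG had a mean of 32.7 FPKM and TGFBR3 (betaglycan) 1.08 FPKM. BMPR2 averaged 17.2 FPKM and the activin receptor ACVR1B 10.8 FPKM, while BMPR1B had no count and AMHR2 averaged 0.00589 FPKM. Of 26 integrins 13 were expressed. ITGB1, the common β1 subunit, had 189, 179 and 187 FPKM, ITGA3, a laminin-binding subunit, 132, 149 and 145 FPKM, and ITGA5, the fibronectin-binding subunit, 72.0, 77.6 and 76.9 FPKM. ITGAV, which pairs with several β subunits to activate latent TGF-β, averaged 14.6 FPKM, with ITGB5 at 6.99 and ITGB3 at 5.03 FPKM, whereas ITGB6 and ITGB8 were silent. ITGA8 and ITGAD had no count, and ITGA11, a collagen-binding subunit of myofibroblasts, averaged 0.0510 FPKM.

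Cytokine and TNF family receptors were expressed in 30 of 55 cases (54.5%, against 52.5% of all coding genes). TNFRSF12A, the receptor for TWEAK, had 83.9, 85.4 and 93.0 FPKM, and IL6ST, the gp130 subunit shared by the IL-6 family, 50.3, 46.3 and 47.4 FPKM. OSMR, which pairs with gp130 for oncostatin M, had 39.5, 39.1 and 38.7 FPKM, while IL6R, the α subunit for IL-6, had 0.242, 0.227 and 0.390 FPKM and IL11RA 1.25, 1.35 and 1.24 FPKM. IL7R, best known from lymphocytes, had 39.0, 38.1 and 38.6 FPKM, in the range of OSMR. TNFRSF1A averaged 46.4 FPKM and the TRAIL receptor TNFRSF10B 36.8 FPKM. IFNGR1 and IFNAR1 averaged 8.44 and 15.3 FPKM, and IL1R1 2.15 FPKM.

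No chemokine receptor and no toll-like receptor was called expressed. Of 22 chemokine receptors 14 were silent, and the highest, CCR10, had 0.929, 1.77 and 1.60 FPKM, which passed the threshold only in con2 and con3. Without con1 it would be counted, and the number of expressed chemokine receptors was then 1. CXCR4 had 0.248, 0.150 and 0.0839 FPKM, and CCR2 and CXCR3 had no count. Of 10 toll-like receptors 6 were silent, among them the overlapped TLR9. TLR4, the receptor for bacterial lipopolysaccharide, had 0.127, 0.118 and 0.127 FPKM and TLR2 0.106, 0.108 and 0.0835 FPKM. CD14, the co-receptor of TLR4, was expressed as given above.

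Of 50 other G protein-coupled receptors studied in stellate cells, 17 were expressed. OXTR, the oxytocin receptor, led with 32.5, 34.9 and 34.5 FPKM, followed by LPAR1, the main lysophosphatidic acid receptor, with 19.6, 20.1 and 20.8 FPKM. The sphingosine phosphate receptor S1PR1 had 8.59, 9.41 and 9.94 FPKM and the adenosine receptor ADORA2B 8.08, 9.75 and 9.83 FPKM, with overlapping ranges. Receptors of the vasoactive peptides were low. The angiotensin receptor AGTR1 had 0.317, 0.574 and 0.456 FPKM, the endothelin receptors EDNRA and EDNRB averaged 0.109 and 0.00198 FPKM, and the cannabinoid receptor CNR1 had no count.

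Of 19 Notch, Wnt and Hedgehog receptors 14 were expressed, led by NOTCH2 at 55.5, 63.3 and 59.5 FPKM and FZD2 at 33.1, 34.5 and 37.0 FPKM. NOTCH3, the Notch receptor of mural cells, had 1.98, 2.50 and 2.15 FPKM. The Hedgehog receptors SMO and PTCH1 averaged 11.9 and 1.76 FPKM, and GLI1, a target of the pathway, had 0.999, 1.14 and 0.866 FPKM. Of 48 nuclear receptors 19 were expressed. NR2F2 (COUP-TFII), a factor of mesenchyme and veins, had 106, 108 and 109 FPKM, well over the next one, PPARD, at 23.4, 27.8 and 26.01 FPKM. The glucocorticoid receptor NR3C1 had 16.0 FPKM and the vitamin D receptor VDR 5.76 FPKM. NR1H4 (FXR), the bile acid receptor, and HNF4A were silent at 0.0141 and 0.00132 FPKM, as was PPARG.

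**Figure D3:**
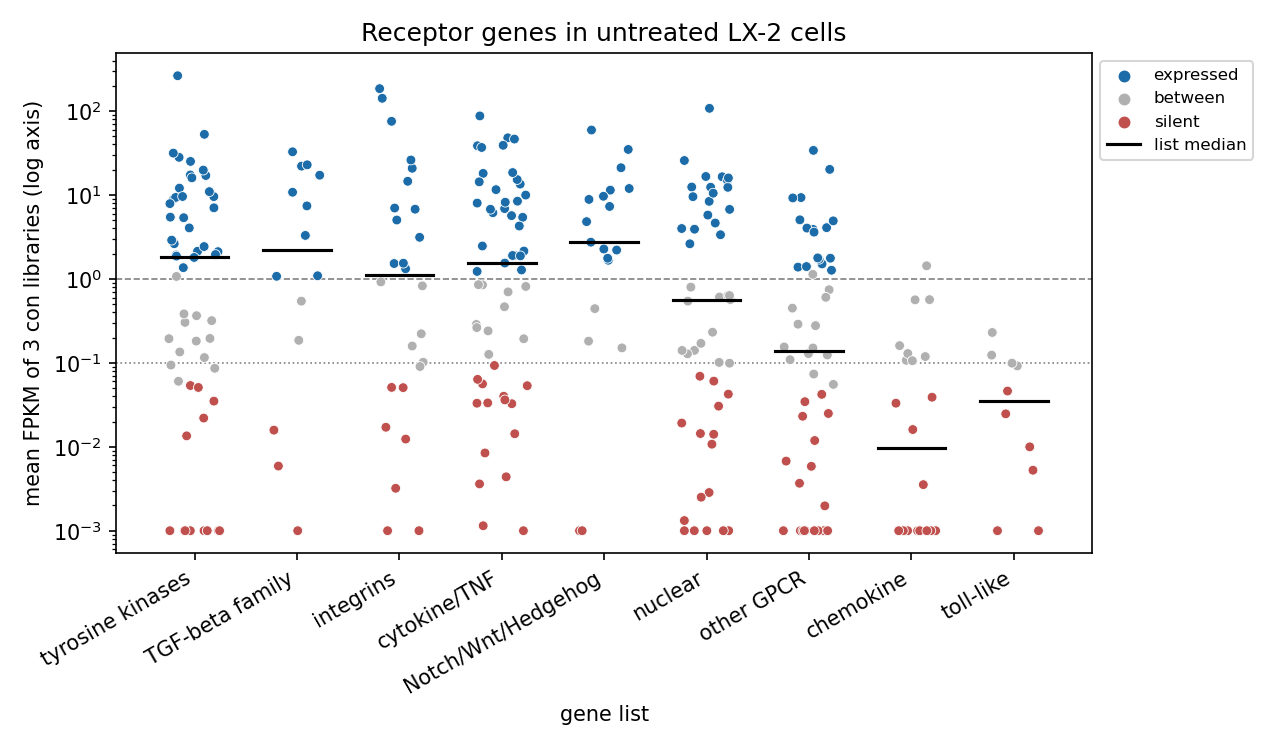
Mean FPKM over the 3 con libraries (log axis) of each gene in 9 receptor lists, coloured by its state; the black bar is the list median, the dashed line 1 FPKM and the dotted line 0.1 FPKM. Values under 0.001 are drawn at 0.001. The chemokine and toll-like lists have no expressed member, while AXL, ITGB1, ITGA3 and NR2F2 lie above 100 FPKM.

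Of 321 listed secreted factors 132 were expressed (41.1%, against 52.5% of all coding genes), 70 of them at 10 FPKM or more in each library. Collagen chains gave 0.846% ± 0.00798 of all counts (SD, n = 3), and 20 of 44 chains were expressed. After COL1A1 came COL5A2 at 98.5, 92.3 and 92.2 FPKM and COL5A1 at 56.7 FPKM, chains of the type V collagen that nucleates fibrils, and the microfibrillar COL6A2 and COL6A1 at 79.8 and 66.2 FPKM. COL12A1 averaged 64.0 FPKM. The basement membrane chains COL4A2 and COL4A1, whose genes lie side by side, had 51.5, 50.7 and 50.4 FPKM and 27.6, 26.4 and 25.3 FPKM, and their ranges did not overlap. COL3A1, the chain of type III collagen, had 9.15, 8.55 and 9.81 FPKM, below COL1A1 in each library, and 17 chains were silent. The range from the highest to the lowest chain was far wider than that between libraries, but neighbours such as COL6A1 and COL12A1 lay close together.

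**Figure D4:**
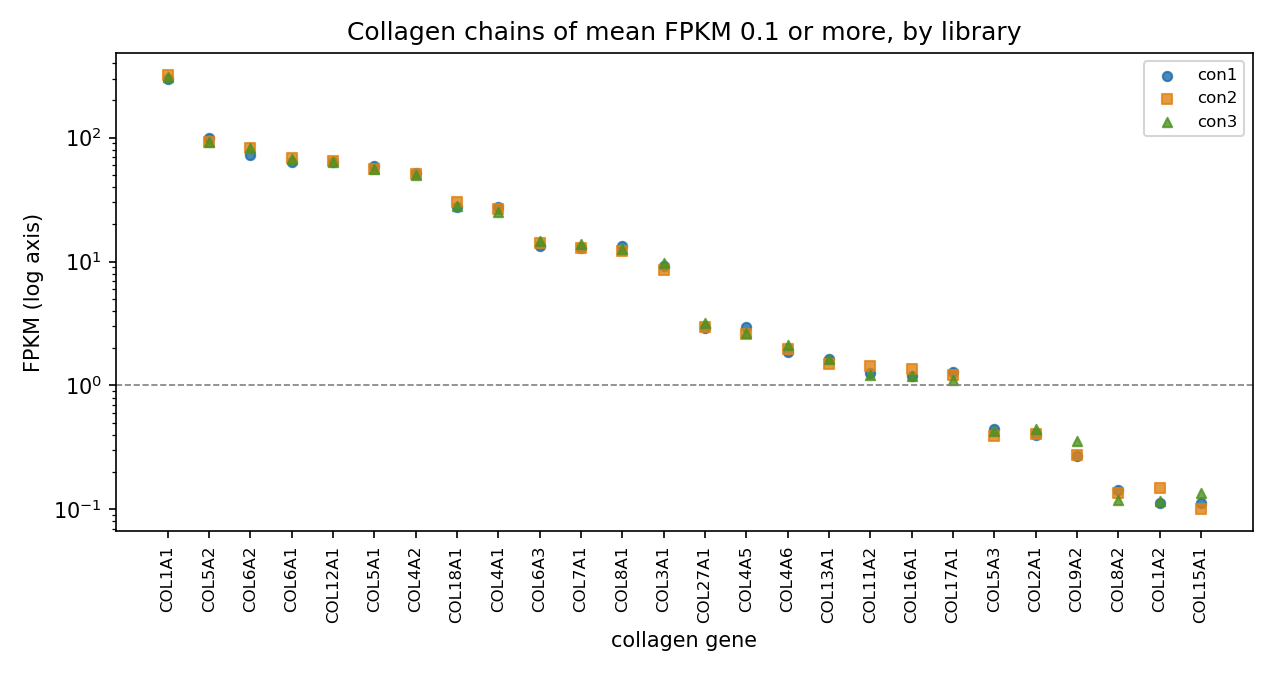
FPKM (log axis) of the collagen genes with a mean of at least 0.1 FPKM in con1, con2 and con3, ordered by mean; the dashed line marks 1 FPKM. COL1A1 stands highest, at 297 to 322 FPKM, and COL1A2 lies among the lowest genes shown.

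Of 50 other matrix genes 27 were expressed. TGFBI averaged 138 FPKM, the tenascin TNC 119 FPKM, the thrombospondin THBS2 104 FPKM and agrin (AGRN) 94.8 FPKM. Among the laminin chains of basement membranes, LAMC1 averaged 82.3 FPKM, LAMA5 51.4 FPKM and LAMB2 49.9 FPKM. FBN1 and FBN2, the fibrillins, had 31.7 and 21.7 FPKM, while ELN (elastin) had no count, and BGN (biglycan) and FMOD were silent. TIMP1, an inhibitor of metalloproteases, had 100.4, 113 and 115 FPKM, TIMP2 64.7, 65.1 and 64.5 FPKM and TIMP3 25.3, 28.5 and 25.5 FPKM. The membrane-bound MMP14 had 41.0, 43.4 and 45.4 FPKM and the interstitial collagenase MMP1 30.1, 29.3 and 30.6 FPKM. MMP2, a gelatinase usually linked to stellate cells, had 2.99, 2.72 and 2.73 FPKM, less than the other gelatinase, MMP9, at 7.43, 7.20 and 8.43 FPKM. The plasminogen activators PLAT and PLAU averaged 38.2 and 20.6 FPKM. SERPINH1, the collagen chaperone, averaged 55.1 FPKM.

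Growth factors were expressed in 23 of 49 cases. CTGF, the CCN family member induced by TGF-β, had 88.4, 96.3 and 97.5 FPKM, less than CYR61 in each library, and MDK (midkine) 75.7, 81.1 and 79.4 FPKM. VEGFB averaged 46.1 FPKM, HBEGF 28.5 FPKM, FGF2 27.3 FPKM, FGF5 25.98 FPKM and PDGFC 23.6 FPKM. PDGFB, the ligand of PDGFRB, had 2.50, 3.47 and 2.70 FPKM and VEGFA 2.43, 2.30 and 2.49 FPKM. GAS6 and its receptor AXL both had RNA, with GAS6 at 17.0, 17.8 and 18.1 FPKM, and HGF, the ligand of MET, had no count, as given above. FGF7 and FGF10, typical of fibroblasts, also had no count.

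Of 32 ligands of the TGF-β family 8 were expressed. TGFB1 had 55.9, 62.1 and 60.4 FPKM, TGFB2 15.8, 14.5 and 14.1 FPKM and TGFB3 0.318, 0.460 and 0.449 FPKM, an order that held in each library without overlap. INHBA and INHBB, the activin subunits, had 8.26 and 7.96 FPKM, and AMH 18.7 FPKM. BMP2, BMP7 and NODAL were silent, and BMP4 and BMP6 lay between, at 0.538 and 0.254 FPKM.

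IL11, a cytokine of the gp130 family, was the highest of 37 cytokines at 45.8, 44.4 and 49.1 FPKM, although its receptor subunit IL11RA was barely over the threshold. IL1B had 26.2, 26.6 and 28.1 FPKM, IL32 18.9, 20.9 and 21.1 FPKM and LIF 7.10, 7.75 and 7.63 FPKM, while IL6 had 2.88, 3.23 and 3.29 FPKM. In all 12 cytokines were expressed. TNF, IL10 and IL33 were silent at 0.0297, 0.00896 and 0.0166 FPKM, and IFNG had no count. Of 34 chemokines 10 were expressed. CCL5, an attractant of T cells and monocytes, had 38.8, 44.3 and 42.4 FPKM, above CXCL8 at 28.6, 25.9 and 30.2 FPKM and CXCL1 at 26.5, 26.2 and 31.0 FPKM, which overlapped. CXCL12 had 6.50, 5.56 and 6.46 FPKM. CCL2, the monocyte attractant often described in stellate cells, had 0.0292, 0.234 and 0 FPKM and was without counts in con3. CX3CL1 averaged 0.00669 FPKM.

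Of 32 Wnt ligands, antagonists and agonists 8 were expressed and 14 silent, with a median of 0.0816 FPKM, and the highest were antagonists. DKK1, which blocks the co-receptor LRP6, had 213, 206 and 216 FPKM, rank 87 of the coding genes, and SFRP1 had 48.2, 48.8 and 49.5 FPKM. DKK3 averaged 57.0 FPKM. The highest Wnt ligand, WNT5B, had 14.4, 14.8 and 16.2 FPKM and WNT5A 5.60, 5.42 and 5.32 FPKM, and no library of a ligand reached the range of SFRP1. IGFBP4 led the 7 insulin-like growth factor binding proteins with 184, 201 and 210.4 FPKM, followed by IGFBP6 with 56.2, 56.2 and 66.5 FPKM. IGFBP3 and IGFBP7, which are known from activated stellate cells, had 5.62 and 2.76 FPKM.

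The authors' table assigns 1553 genes to transcription factor families, and 844 of them were expressed (54.3%), close to the 52.5% of all coding genes. YBX1, a cold-shock domain protein, was highest at 329, 317 and 331 FPKM, followed by the chromatin protein HMGA1 at 206, 228 and 229 FPKM. FOSL1 and JUN, partners in AP-1, had 154, 168 and 164 and 106, 109.6 and 107 FPKM. MYBL2, FOXM1 and E2F1, factors of the cell cycle, averaged 139.5, 72.5 and 62.6 FPKM. Of 193 homeobox genes 68 were expressed and 83 silent, against 354 expressed of 630 zinc fingers of the C2H2 type. All 4 TEAD factors were expressed, led by TEAD4 at 37.2, 43.8 and 41.9 FPKM, and their cofactor YAP1 had 34.2, 32.3 and 34.3 FPKM, with WWTR1 (TAZ) at 2.97, 2.67 and 2.56 FPKM. SRF had 23.9, 29.1 and 25.1 FPKM and its cofactor MRTFA 8.54, 9.47 and 9.15 FPKM. TBX3, SNAI2 and RUNX1 averaged 21.98, 14.9 and 13.7 FPKM. TCF21, a factor of resting stellate cells, had 0.407, 0.438 and 0.376 FPKM, and MEF2C had no count while MEF2D averaged 7.82 FPKM.

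HOX genes, which keep a record of position along the body axis, were expressed in 21 of 39 cases (53.8%, against 52.5% of all coding genes). HOXB9 was highest at 28.3, 28.4 and 27.8 FPKM, followed by HOXB7 at 20.5, 20.1 and 21.5 FPKM and HOXB2 at 18.2, 15.5 and 17.1 FPKM. Members of the HOXB, HOXC and HOXD clusters were expressed, up to HOXB13 at 4.42, 4.27 and 4.78 FPKM, HOXC13 at 1.94, 1.89 and 2.48 FPKM and HOXD13 at 1.31, 1.14 and 1.06 FPKM. In the HOXA cluster only HOXA11 passed the threshold, at 1.49, 1.61 and 1.35 FPKM. HOXA9 averaged 0.0137 FPKM and HOXA10 0.0955 FPKM.

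Among the noncoding classes the highest levels were those of RN7SL2, mitochondrial ribosomal RNA and the leading genes listed as pseudogenes, all above the highest lincRNA. NORAD, a lincRNA that binds Pumilio proteins, had 93.4, 85.7 and 90.1 FPKM, and the next lincRNA, AC117402.1, 80.0, 80.1 and 75.3 FPKM. The antisense-class gene FGD5-AS1 had 61.9, 59.2 and 59.2 FPKM, MALAT1, a nuclear lincRNA, 27.2, 23.6 and 24.1 FPKM and MEG3, an imprinted lincRNA, 23.1, 25.6 and 23.5 FPKM. The small nucleolar host genes SNHG5 and SNHG1 averaged 28.9 and 26.2 FPKM. The mitochondrial ribosomal RNAs MT-RNR2 and MT-RNR1 had 444, 400.2 and 420.4 and 171, 175 and 177 FPKM, and together 0.0838% of the counts. RN7SL2, the RNA of the signal recognition particle, had 336, 630.5 and 676 FPKM, lower in con1 than in con2 and con3. Among pseudogenes MTATP6P1 averaged 458 FPKM and ANXA2P2 179.7 FPKM, genes near-identical to others, whose reads may have been assigned either way. GPX1, listed in this class by the authors' table, had 209.7, 224 and 231 FPKM.

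The con libraries resembled one another closely but not within counting error. Rank correlations over the 11749 expressed genes, a description across genes, were 0.990, 0.991 and 0.993 for the pairs con1 with con2, con1 with con3 and con2 with con3. A chi-square of the counts averaged 9.27, 7.67 and 4.15 per gene for those pairs, where counting error alone would give about 1, so none is a copy of another. The median coefficient of variation of expressed genes was 6.03%, against 2.90% from counting alone, and fell from 7.15% at 1 to 10 FPKM to 4.499% at 100 FPKM or more. The highest library exceeded the lowest by more than 2-fold in 133 of the 11749 genes. Of the 8557 expressed genes with a mean of at least 500 counts, EIF3C, a translation initiation subunit with a near-identical copy, spread most, with 1184, 294 and 258 counts. Con1 was the lowest library in 55 of the 100 such genes of greatest spread, con2 in 31 and con3 in 14.

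**Figure D5:**
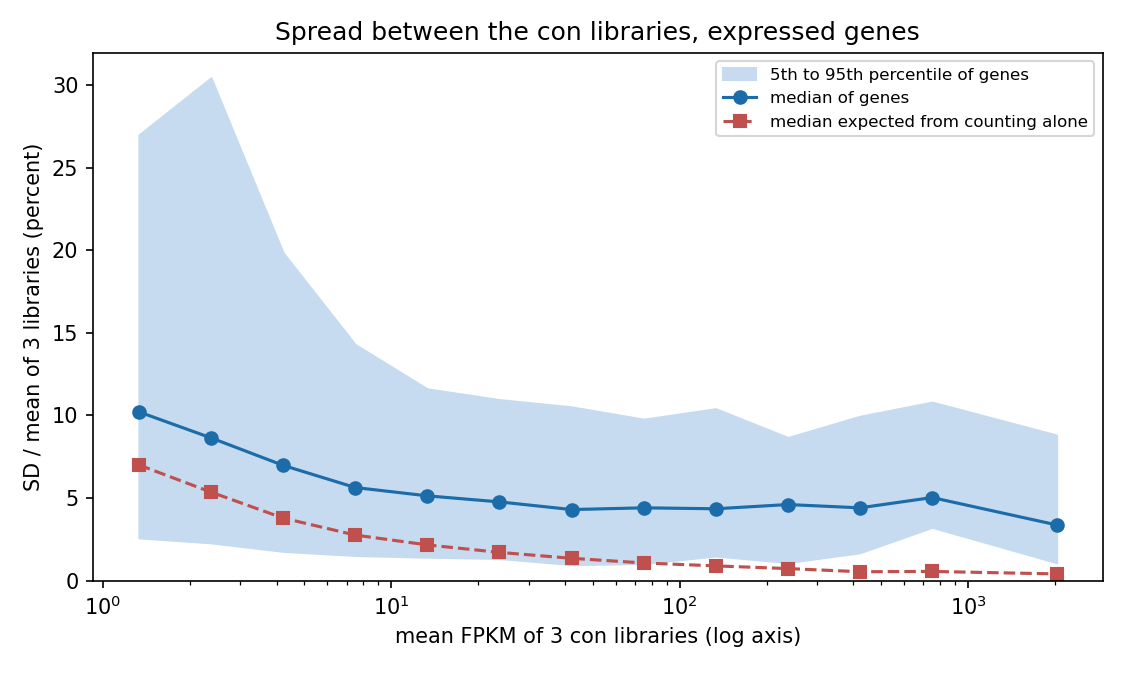
Coefficient of variation over the 3 con libraries (SD divided by mean, in percent) against mean FPKM (log axis) for the expressed genes, in bins of 0.25 on the log10 scale up to 1000 FPKM and 1 bin above. The shaded band runs from the 5th to the 95th percentile of genes, circles are the median, and squares are the median expected from counting alone; the medians lie above the squares in each bin.

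The untreated levels were set against the treated groups with edgeR's quasi-likelihood test on counts, adjusted by Benjamini-Hochberg over 18560 genes. In TGFB 11.9% of them were higher and 12.2% lower than in con, and in SiNAT10 26.4% were higher and 26.4% lower. The con cells had no control siRNA and no transfection reagent named. Effects of transfection and of the NAT10 siRNA therefore cannot be told apart in any SiNAT10 comparison below. NAT10 itself had 11.97, 13.1 and 13.3 FPKM in con and 3.73, 3.52 and 3.41 FPKM in SiNAT10, without overlap. Both comparisons use the same con libraries. The sets of genes below were picked for their con level or as list members, and some single genes were named after their values were seen. For several single genes only a single comparison is given. All these values are therefore descriptions of the genes named, and nothing is read from a count against the background. Of the 100 most abundant nuclear coding genes 38 were higher and 15 lower with TGF-β1 (median log2 fold change 0.11, all genes -0.0065). Scaled to library size alone, which lowers the median of all genes with TGF-β1 to -0.14, 1410 genes were higher and 4623 lower instead of 2213 and 2259, and the same 100 gave 23 higher and 29 lower, so the direction of this set depends on the scaling. In SiNAT10 38 were higher and 35 lower (median -0.0046, all genes 0.019).

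Few coding genes went from expressed to silent or back. These states lie apart, at 1 FPKM or more and under 0.1 FPKM in each library, so smaller shifts do not enter these counts. Of the 10470 expressed coding genes 10196 were expressed in TGFB as well and 10016 in SiNAT10, and none became silent in either group. Of the 6141 silent coding genes 3 were expressed in TGFB and 2 in SiNAT10, and no silent listed gene was expressed in either. More of the silent coding genes left the silent state without being called expressed: 5802 stayed silent in TGFB, 5599 in SiNAT10 and 5562 in SiNAT10_TGFB. Of the 299 silent listed genes 274, 265 and 264 stayed silent in these groups. In SiNAT10_TGFB 9980 of the expressed coding genes were expressed and none was silent, and 3 silent coding genes were expressed, 1 of them on the lists. It was TNFSF15, a cytokine of the TNF family, which averaged 0.0384 FPKM in con and 1.23 ± 0.0552 FPKM in SiNAT10_TGFB (SD, n = 3). LRAT stayed at 0 counts in both TGFB and SiNAT10. POSTN rose from silent to 0.394, 0.630 and 0.650 FPKM with TGF-β1 (log2 fold change 4.25, SE 0.60, adjusted p = 7.36e-06), still under the threshold.

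For the activated list, 22 of 26 genes were higher and 1 lower with TGF-β1, and in SiNAT10 4 were higher and 17 lower. Over all tested genes the shares were 11.9% higher and 12.2% lower with TGF-β1, and 26.4% higher and 26.4% lower in SiNAT10. COL1A1 had 786, 721 and 796 FPKM in TGFB and 98.5, 92.1 and 78.3 FPKM in SiNAT10, on either side of con without overlap (log2 fold changes 1.31, SE 0.07, and -1.79, SE 0.08, adjusted p = 2.56e-12 and 7.79e-15). ACTA2 had 1.48, 1.43 and 1.33 FPKM in TGFB, and its log2 fold change of 0.36 (SE 0.20) had an adjusted p of 0.203. COL1A2 rose to 0.479, 0.444 and 0.640 FPKM and stayed under 1 FPKM in each library.

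Of the 114 receptors expressed in con, 32 were higher and 26 lower with TGF-β1, which became 24 and 51 under scaling to library size alone, and 30 were higher and 56 lower in SiNAT10. AXL fell to 199, 195 and 199 FPKM with TGF-β1 and to 199, 186 and 184 FPKM in SiNAT10 (log2 fold changes -0.42 and -0.48, adjusted p = 3.89e-07 and 1.36e-08). TGFBR2 rose to 60.8, 56.1 and 57.2 FPKM in SiNAT10, while TGFBR1 fell to 10.7, 11.5 and 12.6 FPKM. NR2F2 fell to 32.9, 33.9 and 35.04 FPKM with TGF-β1. Of the 132 secreted factors expressed in con, 67 were higher and 32 lower with TGF-β1, and 47 higher and 65 lower in SiNAT10. Scaled to library size alone, the TGF-β1 counts of these factors became 59 and 41. The shares over all tested genes were 11.9% higher and 12.2% lower with TGF-β1, and 26.4% higher and 26.4% lower in SiNAT10. IL1B, at 26.2 to 28.1 FPKM in con, had 271, 253 and 286 FPKM in SiNAT10 (log2 fold change 3.32, adjusted p = 9.93e-21), and DKK1 fell to 77.6, 82.8 and 76.9 FPKM with TGF-β1. The 13 fold changes of named genes in these comparisons, NAT10 included, kept their direction and their side of the threshold in each of 11 alternatives. These genes were chosen for reporting and most had very small adjusted p, so this stability tells nothing about the called genes in general.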

How the data were processed

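Gene counts and FPKM of 58735 genes were deposited by the authors for 12 libraries, made from reads handled with fastp and HISAT2 2.2.1 on hg38, per the submitters' processing notes. Neither the counting tool and its annotation nor the strand setting or rRNA and poly(A) handling is given in the sources used here. The deposited FPKM of the con libraries equalled counts divided by gene length and 1 constant per library (largest relative departure 2.18e-09). The deposited lengths matched exon unions of GENCODE 29, from which the overlap of each gene with others was computed.

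Levels, states, shares and ranks were computed in Python 3.11.15 from the con libraries alone. Untreated and treated groups were compared on counts with edgeR 4.0.16 in R 4.3.3 (filterByExpr, TMM, quasi-likelihood fit of all 12 libraries, adjusted p under 0.05). DESeq2 1.42.0, other scalings, filters and thresholds and omission of each library were alternatives. The edgeR script was tested on simulated data with known changes. Total counts of the 12 libraries ran from 25877008 to 35132582.

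Named genes were the 25 nuclear coding genes of highest mean FPKM, the mitochondrial genes, the 5 highest of each noncoding class of at least 300 bases, and up to 6 highest members and the defining markers of each list. Other listed genes were named after their values were seen. Some genes that the rule names are not reported here. The members and lists were chosen with earlier results of these data known, and lists came from general knowledge.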

Additional observations from a re-analysis of the deposited data

How the results depend on the processing

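Over the whole table, the counts of expressed and silent genes and the 2 counts of changed genes stayed within 1.5 times their value under each alternative, except that requiring 0 counts left 3695 silent coding genes. Counts moved more within 40 gene sets, which are the lists and the pooled groups made from them, such as all receptors. The expressed count moved by over 1.5 times in 16 sets with at least 10 counts required and in 6 with a TPM of at least 1. The silent count did so in 31 sets with 0 counts required. As shares of summed FPKM, coding genes gave 94.7%, nuclear noncoding genes 5.02%, the 100 most abundant nuclear coding genes 15.9% and mitochondrial coding genes 8.90%. Without mitochondrial genes in the total, coding genes gave 98.4% and nuclear noncoding genes 1.59% of counts. Ranked by counts, 14 of the 25 and 53 of the 100 most abundant nuclear coding genes remained in their class. Ranked by level per median transcript length, an alternative chosen after seeing the data, 13 and 60 remained. Of 177 ranks among coding genes, 13 moved by no more than their SD between libraries when ranked by counts and 12 by median transcript length, so most of these ranks depend on the length used. TMSB10 is at rank 4 of the coding genes by FPKM, 52 by counts and 8 by median transcript length. Leaving out genes with over 50% of their exon bases shared, also chosen after seeing the data, left 5357 silent coding genes.

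Replicate numbers are shared by the groups, but same-numbered libraries did not deviate together (correlations -0.0653 to 0.0163, and 0 of 6 libraries correlated best with its own number). With the replicate block, 4113 genes were called in TGFB and 9459 in SiNAT10, against 4472 and 9808 without it. Omitting a library in turn gave 3572 to 3814 and 8740 to 9553 calls. Genes of few counts are the least certain: at 1 to 10 FPKM the median coefficient of variation was 7.15%, and the states of genes near 1 or 0.1 FPKM move with the threshold.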
